A study of Mus musculus with 27 samples.

Results

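The 43 genes described here are type I interferon-stimulated genes, chosen as a list of symbols of antiviral effectors, sensors and signalling proteins. Their levels were read in dural macrophages of Rag1 ko mice, whose dura was studied with or without transferred T cells. All 43 symbols matched a row among the 41388 gene identifiers of the count table, and all 43 passed the filter on low counts that kept 12661 genes. The host mice were B6 and Rag1 ko in every group, a genotype that lacks endogenous lymphocytes of both lineages, and they were 16 to 19 weeks old. The controls received no T cells and were in steady state (6 libraries, 4 from females and 2 from males). The other groups were sampled 6.5 weeks after reconstitution with total B6 T cells (5 libraries), or with T cells that were Tbet ko (2), IFNg ko (2), IL6Ra ko/IL21R ko (7), IL-17AF ko (2) or IL22 ko (3). The Tbet, IFNg and IL-17AF groups held female libraries alone. Libraries are named by sex and a running number within the group, such as F1 or M1. Whether each library is a different animal is not stated by the labels, and p-values therefore measure only the spread between libraries, which may be technical.

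Type I interferons bind the receptor made of Ifnar1 and Ifnar2, and the kinases Jak1 and Tyk2 then activate a transcription factor complex that includes Stat2 and Irf9. That complex binds a promoter element called the interferon-stimulated response element (ISRE), and the genes it switches on block viral entry, degrade or sense viral nucleic acids, and regulate the response itself. Interferon-gamma, which T cells make, acts through another receptor and through promoters that hold a gamma-activated site (GAS), and a subset of the genes answers to both interferons. Resident macrophages keep a basal level of many of these genes.

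The promoters of 4 members are shown because they carry the elements named above and because, with total T cells against no T cells, Isg15 and Samhd1 rose, Bst2 fell and Oas1a did not pass the test. The letters are RefSeq sequence of GRCm38.p6, 5′ to 3′ on the strand of the gene, and end where the annotated start of the transcript begins. Capitals mark the ISRE match in Isg15, Bst2 and Oas1a and the GAS match in Samhd1, and for Samhd1 only the stretch before the GENCODE gene is printed.
Isg15 (chr4:156200819-156201068, minus strand): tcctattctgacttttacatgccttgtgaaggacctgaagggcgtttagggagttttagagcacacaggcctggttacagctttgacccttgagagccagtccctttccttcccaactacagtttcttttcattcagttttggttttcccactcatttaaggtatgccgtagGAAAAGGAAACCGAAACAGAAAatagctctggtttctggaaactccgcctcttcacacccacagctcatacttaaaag
Bst2 (chr8:71537473-71537722, minus strand): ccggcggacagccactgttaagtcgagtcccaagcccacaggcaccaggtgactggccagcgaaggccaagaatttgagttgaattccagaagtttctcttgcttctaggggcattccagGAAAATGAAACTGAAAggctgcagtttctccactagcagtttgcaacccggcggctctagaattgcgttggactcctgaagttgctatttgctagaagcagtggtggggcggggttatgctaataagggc
Oas1a (chr5:120907526-120907775, minus strand): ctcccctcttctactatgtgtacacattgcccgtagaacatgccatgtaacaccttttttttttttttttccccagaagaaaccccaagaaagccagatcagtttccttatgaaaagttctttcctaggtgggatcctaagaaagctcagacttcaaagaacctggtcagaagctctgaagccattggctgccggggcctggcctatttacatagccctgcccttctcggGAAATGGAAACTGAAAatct
Samhd1 (chr2:157135266-157135346, minus strand): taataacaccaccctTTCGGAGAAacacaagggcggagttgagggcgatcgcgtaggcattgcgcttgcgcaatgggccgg
The ISRE was searched as GAAA, any 2 bases and GAAA again, and the GAS as TTCNNNGAA, on both strands, from 250 bases before to 50 bases after the start. Promoters were found for 32 of the 43 members, and those not matched were Dhx58, Ifi204, Ifi27l2a, Mx1, Mx2, Oas2, Parp14, Parp9, Rtp4, Usp18 and Zbp1. An ISRE match lay in 16 of the 32 (50%) and in 3.99% of the promoters of 27025 genes. A GAS match lay in 9 of the 32 (28.1%) and in 9.55% of all. The 2 motifs overlapped in the windows of 2 members. Isg15 held 3 overlapping ISRE matches, the first beginning 78 bases before the start, and Bst2 and Oas1a held 2 each. Of the members with a promoter, an ISRE match lay in 2 of the 4 that were higher with total T cells, in 3 of the 3 that were lower and in 11 of the 25 that passed neither test. The motif is therefore found in members of each kind, and a match is a description of letters, not of binding.

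Library totals lay between 6902602 and 19966749 counts. Macrophage markers were present throughout, and Csf1r had at least 36067 counts in each library. T-cell markers other than Cd4 were low, with at most 76 counts in any library (Cd8a), then 70 of Cd3d and 59 of Lck, and Cd8a averaged 1.95 ± 2.07 CPM (SD, n = 5) with total T cells and 0.06 ± 0.14 (n = 6) without. Neutrophil markers (S100a8, S100a9, Ly6g, Mpo, Elane and Camp) summed to 1991 CPM in control M1, 453 in control F1 and 0 to 88.2 in the other controls. With total T cells they ran from 10.2 to 234 CPM. Ly6g among them had at most 7 counts in any library. Their part in the levels of the members was not tested. The libraries fell into 3 sets by their summed ribosomal protein transcripts, a split made on 85 genes that include no member. Set A had 26940 to 33005 CPM (counts scaled to the library total), set B 11161 to 15597 and set C 7245 to 8606. Set A held 4 control libraries and 3 total T-cell libraries, and set C held all libraries of the Tbet, IFNg and IL-17AF groups and M4 of the IL6Ra ko/IL21R ko group. The remaining 13 libraries form set B. Since no control library is in set C, the set and the group cannot be told apart for those 3 groups.

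In macrophages of mice without T cells the members spanned a wide range of levels per length. Ifitm3, a membrane protein that hinders viral entry, was highest at 708 ± 41.4 CPM per kilobase of exon (SD, n = 6). Ifi27l2a followed at 417.7 ± 49.8, then Bst2, the tether of budding virus particles, at 391 ± 41.6. The next member, the ubiquitin-like modifier Isg15, stood at 75.2 ± 18.3, and Samhd1, a phosphohydrolase that depletes nucleotides, at 60.2 ± 5.3. Mx1 and Mx2, of the dynamin-like GTPase family, were lowest at 3.57 ± 0.54 and 1.03 ± 0.36. Mx2 is annotated as a polymorphic pseudogene, so its transcript level is no measure of a working protein. Ifi27l2a and Bst2 lay within their spread of each other, as did Isg15 and Samhd1. The top 3 members were far above the rest.

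**Figure D1:**
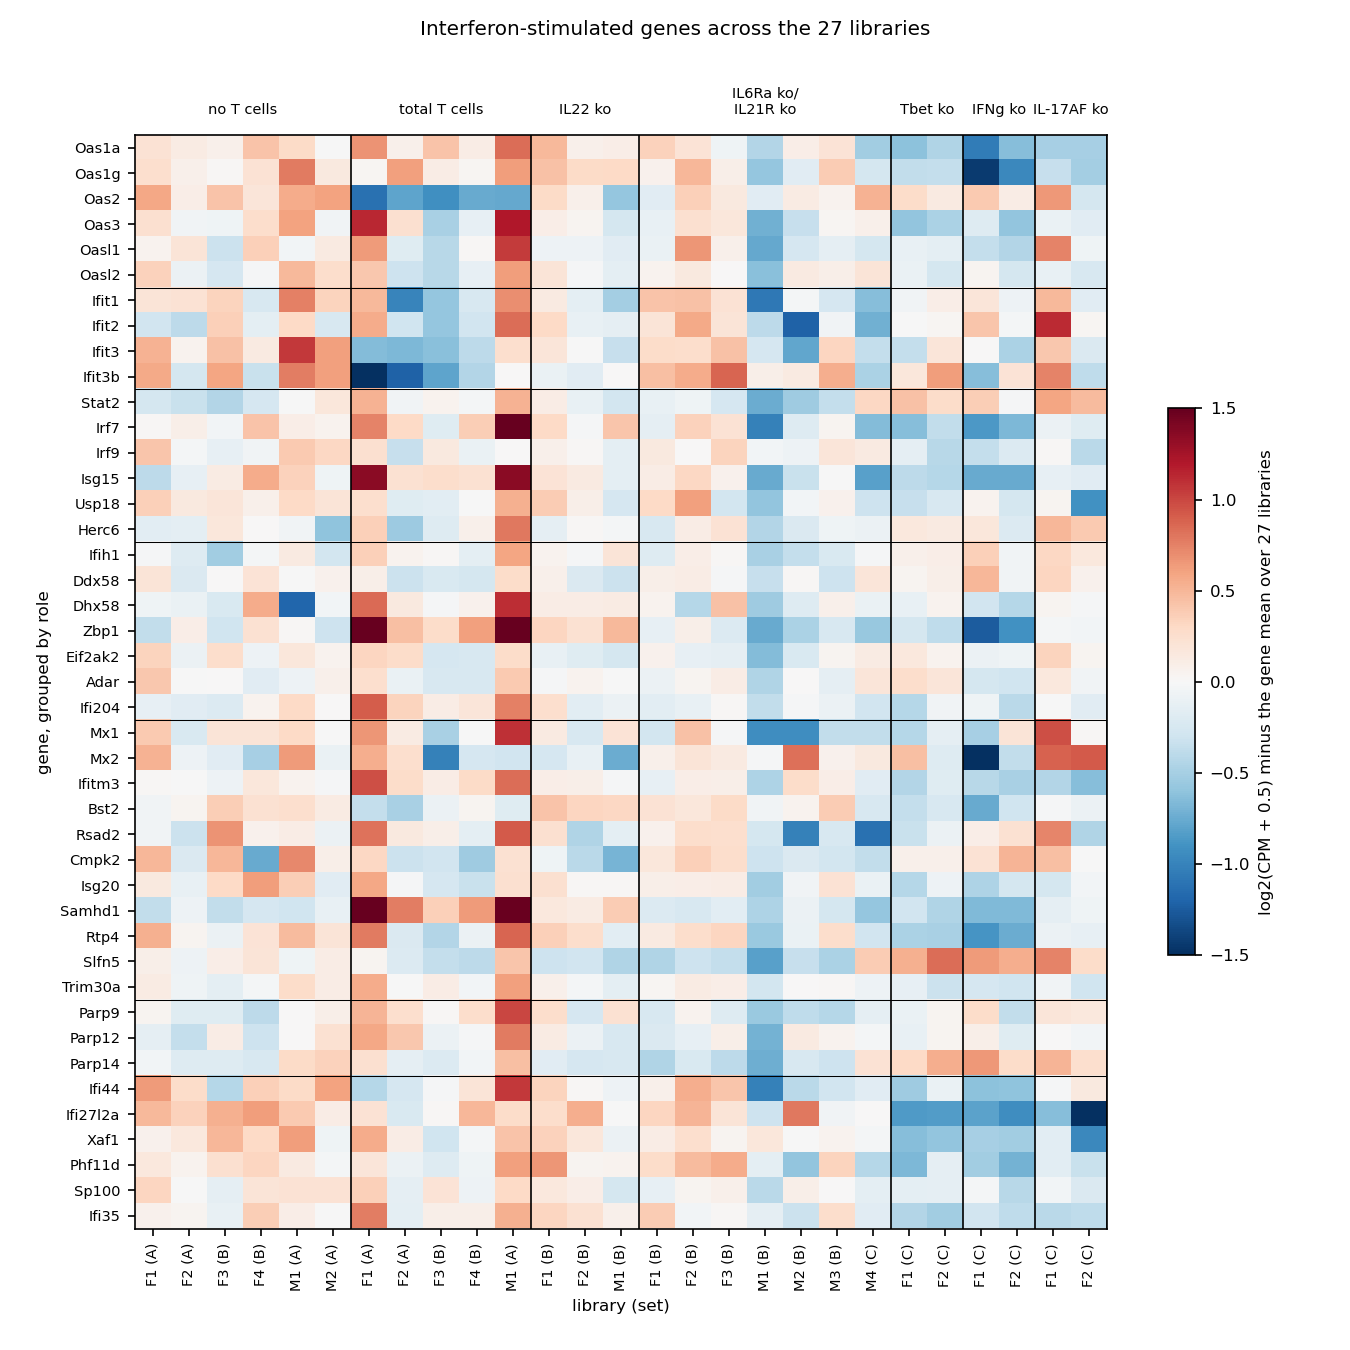
Level of each of the 43 genes (rows, grouped by role) in each of the 27 libraries (columns, with the library set in brackets), as log2(CPM + 0.5) minus the gene's mean over the libraries. Total T-cell libraries F1 and M1 are red for most genes, whereas Oas2 is blue in all 5 total T-cell libraries, and IL6Ra ko/IL21R ko library M1 is blue for nearly every gene.

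Mice with total T cells were compared with mice without T cells to see what the presence of T cells changed. The members did not move as a block: 7 rose, 4 fell and 32 did not pass the test (edgeR quasi-likelihood test, adjusted p under 0.05). This is 25.6% of the members, where 21.0% of all 12661 genes were called, 11.7% higher and 9.39% lower. The median log2 fold change of the members was 0.06, against -0.02 over all genes tested. The falls were Oas2, an oligoadenylate synthetase, Ifit3 and Ifit3b, of the IFIT proteins that bind foreign RNA or its partners, and Bst2. The rises were the sensors Zbp1 and Ifi204, the PARPs Parp9 and Parp12, and Samhd1, Isg15 and Ifitm3.

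Samhd1 rose most. It measured 2326 CPM in total T-cell library F1, 1112 in F2, 832 in F3, 1017 in F4 and 1818 in M1. Without T cells its lowest, median and highest values were 503, 538 and 618 CPM. The groups did not overlap, and the mean was 1421 ± 629 (SD, n = 5) against 550.4 ± 48.5 (n = 6). The log2 fold change was 1.38 ± 0.18 (SE, edgeR adjusted p = 3.04e-05). Samhd1 lies on the minus strand of chromosome 2, from 157097533 to 157135265.

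Zbp1, a sensor of left-handed nucleic acids that can start cell death, measured 239, 104, 91.8, 117 and 258 CPM in total T-cell libraries F1 to F4 and M1. Without T cells it ran from 58.9 over a median of 69.1 to 89.1 CPM. The groups again did not overlap, although F3 was only slightly above the highest control. The log2 fold change was 1.18 ± 0.22 (SE, edgeR adjusted p = 0.000559). The DNA sensor of the HIN-200 family Ifi204 rose by less, with a mean of 222 ± 55.8 CPM against 156 ± 21.1 and a log2 fold change of 0.52 ± 0.14 (SE, edgeR adjusted p = 0.00871). About 13.2% of the 75-base words of the Ifi204 transcripts also occur in Ifi207, Ifi211 or Mndal, so reads may be split between them.

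Oas2 makes the signal that activates RNase L, and it went the other way. It measured 16.7, 21.1, 19.2, 21.6 and 21.4 CPM in total T-cell libraries F1 to F4 and M1, and from 39.5 to 56.0 CPM, with a median of 52.0, without T cells. All 5 libraries lay below all 6 controls. The log2 fold change was -1.30 ± 0.17 (SE, edgeR adjusted p = 3.11e-05). No other member of the family passed the test: Oas1a, Oas1g, Oas3, Oasl1 and Oasl2 had log2 fold changes from -0.03 to 0.38. Oas2 shares no 75-base word with another gene, while 47.6% of the words of Oas1a and 36.9% of those of Oas1g are shared between that pair, so the split between them is uncertain.

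Ifit3 and its near copy Ifit3b lie close together on chromosome 19 and fell as well. Ifit3 measured 31.9, 31.3, 32.5, 38.3 and 60.3 CPM with total T cells, and 52.2, 70.4 and 105 as lowest, median and highest without. Ifit3b measured 2.16, 4.66, 6.43, 8.34 and 11.5 CPM, and 9.01, 17.4 and 19.8 without T cells. In both genes M1 was the highest total T-cell library and was the one that overlapped the controls. The log2 fold changes were -0.87 ± 0.23 for Ifit3 (SE, edgeR adjusted p = 0.00876) and -1.18 ± 0.33 for Ifit3b (adjusted p = 0.0137). They share 41.1% and 35.7% of their 75-base words with each other, so a fall of either may in part be read from the other. Ifit1 and Ifit2 did not pass the test.

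Bst2 fell by a smaller amount. It measured 246, 224, 296, 324 and 278 CPM with total T cells and 303, 356 and 406 as lowest, median and highest without, with F4 above the lowest control. The log2 fold change was -0.37 ± 0.12 (SE, edgeR adjusted p = 0.0283). Bst2 is also counted among the markers of plasmacytoid dendritic cells, another source of type I interferon, so the other 6 of those markers are given beside it. Siglech was 9.72 ± 4.86 CPM with total T cells and 60.3 ± 9.42 without, Tcf4 184 ± 42.2 and 276 ± 38.6, and Cox6a2 1.01 ± 0.86 and 2.11 ± 1.93. Spib, Ccr9 and Klk1, too low to be tested, had the higher mean with total T cells, at 1.66, 0.69 and 0.31 CPM against 0.40, 0.15 and 0. Summed with Bst2 itself, the 7 markers ran from 414 to 549.6 CPM with total T cells and from 598 to 774 without. Their part in the fall was not tested.

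Among the transcription factors and the ISG15 pathway, Isg15 was the sole member called. It measured 136, 61.6, 63.3, 62.0 and 136 CPM in total T-cell libraries F1 to F4 and M1, and 39.9, 53.9 and 78.0 as lowest, median and highest without T cells. F1 and M1 were above all controls and the other 3 lay within the range of the controls. The log2 fold change was 0.69 ± 0.24 (SE, edgeR adjusted p = 0.0379). Isg15 lies on the minus strand of chromosome 4, from 156199424 to 156200818. It shares no 75-base word with another annotated gene, and its single near copy, a processed pseudogene on chromosome 17 (AC151275.1), matches at 95.2% over 482 bases and has no row in the table.

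Ifitm3 and the ADP-ribosyltransferases Parp9 and Parp12 made up the remaining rises. Ifitm3 measured 923, 572, 509, 576 and 840 CPM with total T cells and at most 529.7 without, with F3 inside the control range. Its log2 fold change was 0.52 ± 0.14 (SE, edgeR adjusted p = 0.00891). Parp9 measured 94.1, 78.9, 66.9, 79.6 and 133 CPM against at most 70.0 without T cells (log2 fold change 0.57 ± 0.15). Parp12 measured 157, 139, 99.2, 104 and 181 CPM against 82.3 to 123 (log2 fold change 0.45 ± 0.15). Their edgeR adjusted p-values were 0.00977 and 0.0379. Of the 11 members called, the groups of Samhd1, Zbp1 and Oas2 did not overlap, which is 6.98% of the 43 members where 10.5% of all genes did not overlap.

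**Figure D2:**
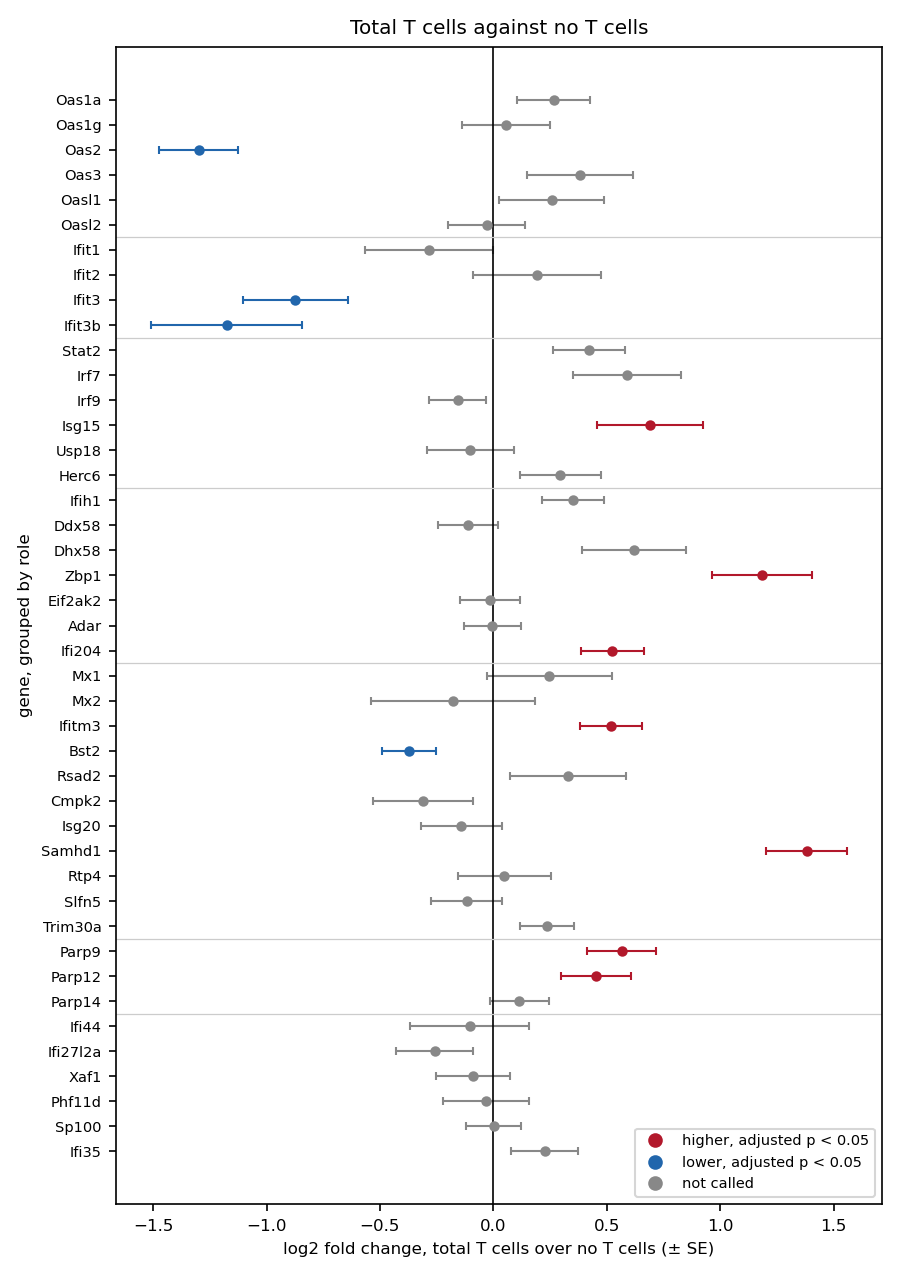
Log2 fold change (x axis, ± SE) of each of the 43 genes (y axis, grouped by role) for total T cells over no T cells. The 7 red genes were higher and the 4 blue genes lower at an edgeR adjusted p under 0.05, with Samhd1 at 1.38 and Oas2 at -1.30 as the extremes.

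**Figure D3:**
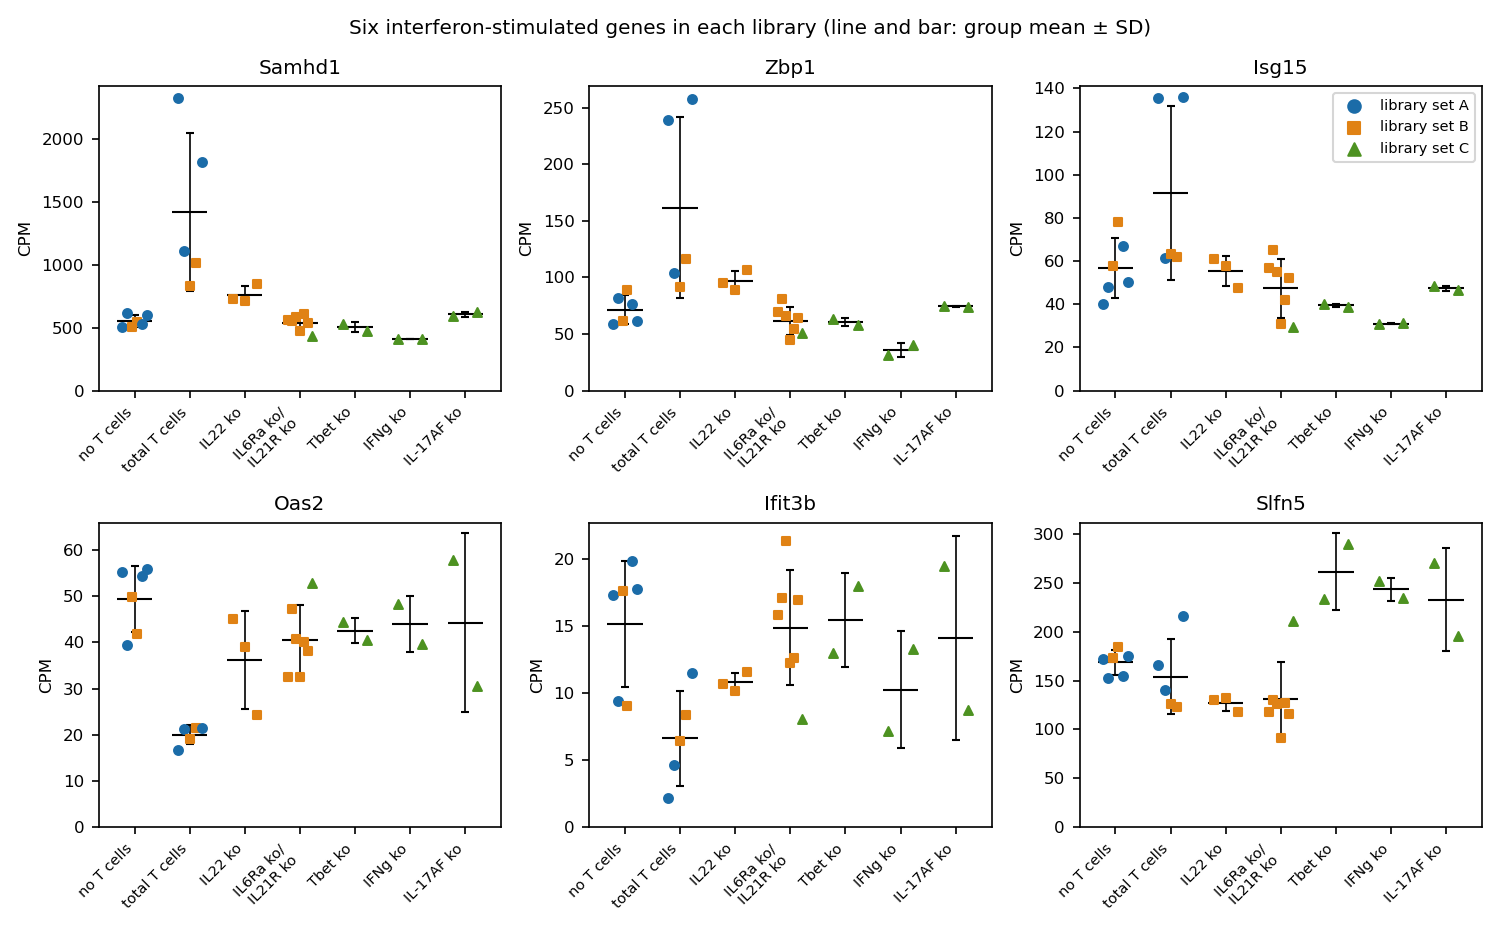
CPM (y axis) of 6 members in every library, by group (x axis), with the group mean and SD as line and bar and the library set as colour and shape. Samhd1, Zbp1 and Oas2 separate total T cells from no T cells, Isg15 is raised in 2 total T-cell libraries of set A, and the highest Slfn5 values lie in set C.

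Of the rises, only Samhd1 and Zbp1 kept their call without total T-cell library M1. In that fit 2 members rose and 4 fell (13.6% of all genes were then called, 7.80% higher and 5.76% lower). Relative to each gene's mean over the libraries, the median member stood at 0.51 (log2) in total T-cell library F1 and at 0.62 in M1, with 37 and 38 of the 43 members above their own medians. In F2, F3 and F4 the median member stood at -0.09, -0.18 and -0.04. Without T cells the libraries lay between -0.06 and 0.28. Monocyte marker transcripts (Ly6c2, Ccr2, Plac8 and Chil3) summed to 6968 CPM in F1, 2886 in M1, 2259 in F2 and 1606 and 1541 in F3 and F4, and to 643 to 1098 without T cells. Border macrophage markers (Mrc1, Pf4, Cd163, Lyve1, Folr2 and Cbr2) went the other way, with 872 CPM in F1, 1216 in M1, 2188 to 4101 in F2 to F4 and 4614 to 6890 without T cells. Conventional dendritic cell markers summed to 52.1 to 105 CPM with total T cells and to 13.9 to 35.6 without, but did not all move alike. Mean Xcr1, Clec9a and Ccr7 were 11.8, 20.3 and 30.3 CPM with total T cells against 2.48, 4.28 and 2.53 without. Flt3 was close, at 7.84 against 6.56, and Zbtb46 was lower, at 5.24 against 8.68. Of these 3 lists none overlapped between the groups. Their part in the rises and falls was not tested. Since these are bulk samples, a change in the share of a cell type and a change in the RNA per cell cannot be told apart.

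Within the library sets the picture differed. In set A, with 3 total T-cell and 4 control libraries, 9 members were higher and 4 lower, and the median was 0.22, where 16.2% of all genes were called (9.36% higher, 6.85% lower) with a median of -0.04. In set B, with 2 and 2 libraries, Samhd1 rose by 0.81 ± 0.14 (SE, edgeR adjusted p = 0.00983), Oas2 was lower at -1.17 ± 0.23 (adjusted p = 0.02), and no other member passed, with a median of -0.20. Of all genes 3.15% were called in set B (1.87% higher, 1.28% lower) with a median of -0.01, so fewer genes passed there altogether. Fold changes were positive for 32 members in set A and for 14 in set B, and 20 members were positive in A and negative in B. For Isg15 the values were 1.18 ± 0.25 in set A and -0.12 ± 0.20 in set B (SE). For Ifit3 they were nearly equal, at -0.83 ± 0.18 and -0.82 ± 0.21. A test of the difference between the sets (edgeR interaction term) called 0 of the 43 members and 0 of 12661 genes, with 16 members (37.2%) and 10.1% of all genes at an unadjusted p under 0.05.

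**Figure D4:**
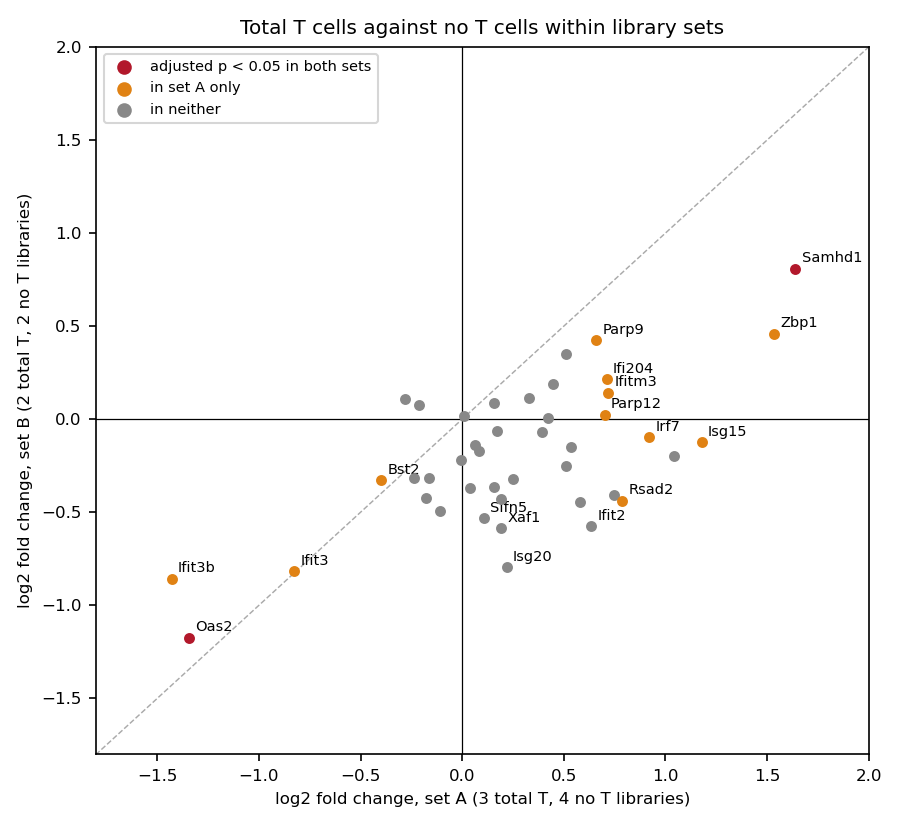
Log2 fold change of total T cells over no T cells in library set A (x axis) and set B (y axis) for the 43 genes, with colour for the edgeR adjusted p and a dashed line of equality. Samhd1 and Oas2 pass in both sets, and Isg15 lies at 1.18 in A and -0.12 in B.

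Among genes that carry the interferon signal, more rose than fell. Of 30 genes of the pathway tested (receptors, kinases, regulators and upstream sensors), 11 rose (36.7%, against 11.7% of all genes) and 1, Tlr7, fell (3.33%, against 9.39%), and their median log2 fold change was 0.20. The kinase Jak2 rose by 1.41 ± 0.23 (log2, SE) and the feedback inhibitor Socs1 by 1.79 ± 0.32. The type I receptor chain Ifnar1 rose by 0.41 ± 0.11 and its kinase Tyk2 by 0.62 ± 0.10. Of 20 interferon-gamma response genes tested, 16 rose (80%) and 0 fell, with a median log2 fold change of 1.36. Irf1 and Socs1 are counted in both lists. The ligands themselves were close to absent. Ifng had 61 counts in total T-cell library F1, 7 in M1, 2 in F2 of the IL22 ko group, 1 in F1 of the controls and 0 elsewhere, and Ifnb1 had at most 44 counts in any library.

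The 5 groups with knockout T cells were next set against the total T-cell group. All 5 comparisons share the same 5 total T-cell libraries, F1 and M1 among them. With IL6Ra ko/IL21R ko T cells 3 members were higher and 13 lower than with total T cells, which is 37.2% of the members against 28.2% of all genes called (13.1% higher, 15.1% lower), and the median was -0.27. Cell markers differed between these groups without overlap, with monocyte sums of 241 to 977 CPM against 1541 to 6968 with total T cells and border macrophage sums of 5350 to 8995 against 872 to 4101, and their part was not tested. Samhd1 was lower by the widest margin, with 435, 552 and 612 CPM as lowest, median and highest of 7 libraries, all below the 5 total T-cell libraries. Its log2 fold change was -1.43 ± 0.18 (SE, edgeR adjusted p = 6.55e-06). Zbp1 ran from 44.8 over 64.0 to 81.0 CPM, again without overlap, at -1.40 ± 0.21 (adjusted p = 4.37e-05). Oas2 ran from 32.6 over 40.1 to 52.9 CPM, above all total T-cell libraries, at 1.01 ± 0.17 (adjusted p = 0.000124). Parp9 was lower at -0.76 ± 0.15 (adjusted p = 0.000483) with overlapping libraries.

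These differences were fewer when total T-cell library M1 was left out (8 members, 3 higher and 5 lower, with 19.2% of all genes called, 8.30% higher and 10.9% lower). In set B alone 4 members passed, namely Oas2, Ifit3b and Cmpk2 higher and Samhd1 lower, with 2.83% of all genes called (0.818% higher, 2.01% lower). Oas2, Ifit3b and Samhd1 passed in each alternative run for this comparison. Library M1 of the IL6Ra ko/IL21R ko group stood low for nearly the whole list, with the median member at -0.47 and 1 of 43 members above its own median.

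With IL22 ko T cells 0 of 43 members passed edgeR's test against total T cells, where 0.0869% of all genes did. At an unadjusted p under 0.05 there were 9 (20.9%, against 17.3% of all genes), and DESeq2 called 3: Oas2, Bst2 and Samhd1. No share of all genes called by DESeq2 is set beside that count, so it is not read as particular to the members. Oas2 measured 45.1, 39.0 and 24.4 CPM in F1, F2 and M1, above the total T-cell range, with a log2 fold change of 0.85 ± 0.20 (SE, edgeR adjusted p = 0.0573). Samhd1 measured 724, 709 and 845 CPM, below 4 of the 5 total T-cell libraries but above all controls, at -0.91 ± 0.22 (adjusted p = 0.0573). Bst2, at 425, 395 and 392 CPM, lay above all total T-cell libraries, at 0.57 ± 0.14 with the same adjusted p.

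With Tbet ko T cells 3 members were higher and 13 lower (37.2%, against 30.0% of all genes, 14.9% higher and 15.1% lower), and with IFNg ko T cells 2 were higher and 16 lower (41.9%, against 36.8%, 17.4% higher and 19.5% lower). With IL-17AF ko T cells the counts were 2 and 11 (30.2%, against 25.1%, 12.6% higher and 12.5% lower). The lower members made up 30.2%, 37.2% and 25.6% of the list, above the shares of all genes, and the higher members 6.98%, 4.65% and 4.65%, below them. Medians were -0.47, -0.45 and -0.27. Each group has 2 libraries. The names of the 2 Tbet columns share the same number and differ only by a final letter. The pair may therefore be 1 animal, which the names do not settle. Summed as 1 library, the Tbet pair gave 6 called members, a count with no share of all genes in that fit beside it. Total T cells, used as the reference, had fibroblast marker transcripts of 220 to 333 CPM, while these 3 groups had 2014 to 3189. Monocyte markers were 1541 to 6968 CPM with total T cells and 231 to 356 in the 3 groups, and border macrophage markers 872 to 4101 and 6540 to 9982. The part of these in the results was not tested. With the library set as a term in the fit, none of the 43 members passed in any of the 3 comparisons (0 each), and of all 12661 genes 6, 48 and 3 did, a fit that rests on M4 of the IL6Ra ko/IL21R ko group. In that fit Samhd1 had log2 fold changes of -0.78 ± 0.35, -1.08 ± 0.35 and -0.52 ± 0.35 (SE) for Tbet ko, IFNg ko and IL-17AF ko.

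Samhd1 was lowest with IFNg ko T cells, at 412 and 411 CPM, with a log2 fold change of -1.79 ± 0.27 (SE, edgeR adjusted p = 5.69e-05). It was 533 and 477 CPM with Tbet ko and 592 and 622 with IL-17AF ko T cells, at -1.50 ± 0.27 and -1.24 ± 0.27. All 6 libraries lay below the total T-cell libraries. Zbp1 measured 31.6 and 40.4 CPM with IFNg ko T cells, below every other library of the study, at -2.18 ± 0.35 against total T cells (adjusted p = 8.13e-05). Isg15 measured 31.0 and 31.1 CPM there, 39.9 and 38.9 with Tbet ko and 48.3 and 46.6 with IL-17AF ko T cells. Oas2 was higher than with total T cells in all 3 groups, at 40.6 to 44.5 CPM (Tbet), 39.7 to 48.3 (IFNg) and 30.5 to 58.0 (IL-17AF). Oas1a and Oas1g were lower with IFNg ko than with total T cells, at -1.34 and -1.56 (edgeR adjusted p = 0.000265 and 0.000402). With Tbet ko T cells Oas1a and Ifi27l2a were lower, at -1.04 and -1.09 (adjusted p = 0.00238 and 0.00247). With IL-17AF ko T cells Ifitm3 and Ifi27l2a were lower, at -1.10 and -1.26 (adjusted p = 0.00077 and 0.00143).

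**Figure D5:**
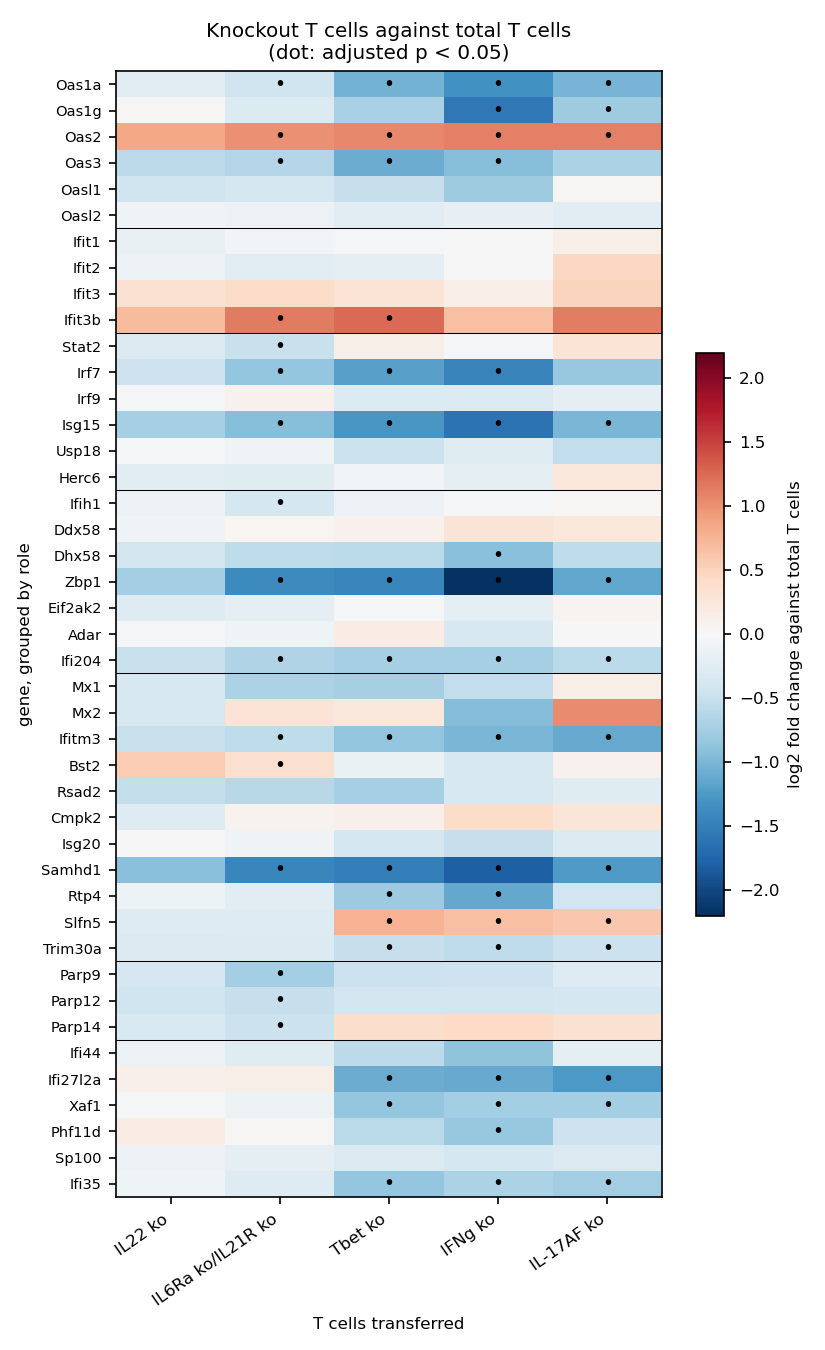
Log2 fold change of each knockout T-cell group over total T cells (columns) for the 43 genes (rows, grouped by role), with a dot where the edgeR adjusted p was under 0.05. Samhd1, Zbp1 and Isg15 are blue and Oas2 red in every column, and Slfn5 is red only in the 3 columns of set C.

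Set against the controls without T cells, the knockout groups differed less. Called members numbered 0 with IL6Ra ko/IL21R ko (edgeR, 3 or 6.98% at an unadjusted p under 0.05 against 10.8% of all genes, 0 by DESeq2, background 1.15%) and 0 with IL22 ko T cells (4 or 9.3% unadjusted against 9.37%, 0 by DESeq2, background 0.0079%). With Tbet ko T cells 3 fell (6.98%, background 7.21%, of which 4.19% higher and 3.03% lower), with IL-17AF ko T cells 2 fell and 1 rose (6.98%, background 5.97%, of which 3.69% higher and 2.28% lower), and with IFNg ko T cells 8 fell and 1 rose (20.9%, background 13.7%, of which 6.82% higher and 6.84% lower). These counts fell to 0 on leaving out a single library in each of the 3 groups (either Tbet library, F1 of IFNg ko, F2 of IL-17AF ko), and to 0 with the set as a term. Fibroblast and monocyte markers separated the 3 groups from the controls, with sums of 2014 to 3189 CPM against 381 to 1281 and of 231 to 356 against 643 to 1098. Border macrophage sums, 6540 to 9982 CPM against 4614 to 6890, overlapped, as did conventional dendritic cell sums, 11.4 to 24.4 against 13.9 to 35.6. The part of these markers was not tested.

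Ifi27l2a, from a family of small hydrophobic interferon-induced proteins, was called in all 3. It measured 79.4 and 80.5 CPM with Tbet ko, 82.4 and 75.4 with IFNg ko and 92.4 and 50.7 with IL-17AF ko T cells, against 156 to 222 without T cells, and no library overlapped. The log2 fold changes were -1.35 ± 0.25, -1.37 ± 0.25 and -1.52 ± 0.26 (SE), with edgeR adjusted p-values of 0.00477, 0.0029 and 0.00444. Over all alternatives run, those that lost the call included, the fold change lay between -1.38 and -1.16 for Tbet ko, -1.46 and -1.17 for IFNg ko and -1.996 and -1.16 for IL-17AF ko. M4 of the IL6Ra ko/IL21R ko group, the other library of set C, had 144 CPM of Ifi27l2a and lay within the range of its own group. That is 1 library, and for the 3 groups the set and the group cannot be told apart. Xaf1, an interferon-induced partner of an inhibitor of apoptosis, fell in all 3 as well, at -0.95 ± 0.24, -0.84 ± 0.24 and -0.84 ± 0.24. Oas1a measured 47.1 and 52.7 CPM with Tbet ko T cells and 34.8 and 46.1 with IFNg ko T cells, against 72.3 to 97.5 without T cells, and fell by 0.78 ± 0.23 and 1.07 ± 0.24 on the log2 scale. Oas1g measured 5.64 and 8.0 CPM with IFNg ko T cells, below the lowest control of 16.2, and Bst2 187 and 256, below the lowest control of 303. The rises were Parp14 with IFNg ko T cells (0.54 ± 0.18, adjusted p = 0.041) and Stat2 with IL-17AF ko T cells (0.72 ± 0.21, adjusted p = 0.0465).

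Slfn5, Parp14 and Stat2 were also high in M4, the single library of set C in the IL6Ra ko/IL21R ko group. In M4 Slfn5 had 211 CPM, where the other 6 libraries of that group had 91.4 to 130.4. Parp14 had 204 CPM in M4 and 106 to 149.9 in the others, and Stat2 75.3 against 36.0 to 58.0. The 6 libraries of the Tbet, IFNg and IL-17AF groups had 196 to 289.97 CPM of Slfn5. Such levels were not confined to set C: total T-cell library M1 had 216 CPM of Slfn5 and 242 of Parp14, control M2 had 223 of Parp14, and total T-cell libraries F1 and M1 had 87.2 and 87.0 of Stat2, while IFNg ko library F2 of set C had 59.8. Fibroblast markers summed to 2914 CPM in M4 and to 318 to 1011 in the rest of its group. Their part in the levels of these 3 genes was not tested.

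Among the 7 groups, 19 of the 43 members differed in edgeR's F-test (44.2%, against 38.4% of all genes), in the order Samhd1, Ifi27l2a, Zbp1, Oas2, Ifitm3, Oas1a, Slfn5, Parp14, Bst2, Oas1g, Isg15 and Ifi204 for the 12 lowest p-values. Between knockout groups, 0 members were called for IL22 ko against IL6Ra ko/IL21R ko T cells (3 or 6.98% unadjusted against 8.59% of all genes, 0 by DESeq2) and 0 for IFNg ko against IL-17AF ko T cells (4 or 9.3% unadjusted against 6.13%, 0 by DESeq2), with backgrounds of 0.0079% and 0.0158% of all genes. Sex by group, tested for IL6Ra ko/IL21R ko T cells against no T cells, gave 0 members by edgeR's interaction test and 8 (18.6%) at an unadjusted p under 0.05, where 0 of all 12661 genes were called and 5.74% passed unadjusted.

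Once each group's mean was removed, the members tended to vary together across libraries. The values of all members in a library rest on the same depth and scaling factor, which differ between libraries. Over the 27 libraries the median Spearman correlation of the 903 pairs was 0.43 with group means removed, where 39 pairs were negative, and 0.30 without removing them. No pairs of other genes are set beside these values, so shared variation is not shown to be particular to the members. The library sets also divide some groups, and their part was not tested. The pair most alike was Ifit2 and Rsad2 (0.89), the latter an antiviral enzyme, followed by Oasl2 and Trim30a (0.85). Bst2, Mx2, Ifit3b and Oas2 were the members least tied to the others, with median correlations of 0.13, 0.15, 0.18 and 0.26. Of these, Bst2, Ifit3b and Oas2 are also 3 of the 4 members that fell with total T cells.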

How the data were processed

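RNA of bulk sorted dural macrophages was read from a single end (75 bases, unstranded kit), per the labels' protocols. The tools named in the submitters' processing notes are STAR 2.4.0j, featureCounts and DESeq2 1.20.0, with the GRCm38 build. The authors deposited whole-number counts per gene in 27 columns, with unequal column totals, and these were taken as raw. How multiply matching reads were counted is not stated. Identifiers without a symbol took 0.106% to 0.143% of a library's counts.

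A gene was kept where its mean normalized count reached 10 (12661). One edgeR 4.0.16 quasi-likelihood model (R 4.3.3, TMM scaling) with group and sex was fitted to the 27 libraries, and p-values were adjusted by Benjamini-Hochberg over all genes and called under 0.05. CPM are counts over the total times the TMM factor. DESeq2 1.42.0 was an alternative. On simulated data for total T cells against no T cells over 12661 genes, 86.4% of genes changed by a log2 of 2 and 55.6% of those changed by 1 were recovered, with 5 false calls, and the pass mark for that check was lowered after its first result was seen. Libraries of a group differed by more than sampling noise (chi-square per degree of freedom 8.97 to 138 over 52 pairs). The library sets follow the 2 widest gaps in ribosomal protein CPM.

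The members and gene lists were chosen with earlier results of these data known. Some genes of the pathway and marker lists are not reported here and are left out of the lists' counts and sums. Isg15 and the other members called between total and no T cells are given with fold change and adjusted p for that comparison. The 12 with the lowest F-test p are all named, some with fewer values. In other comparisons the 4 called members with the lowest p were named, and further members are named after their values were seen. Promoter sequences and motifs come from RefSeq, genes and coordinates from GENCODE M21. Alternatives were DESeq2, other scaling, no filter, no sex term, females alone, the set as a term or alone, only the 2 groups, and leaving out each library.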

Additional observations from a re-analysis of the deposited data

Results flagged for a closer look

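Each member was checked in each group of 5 to 7 libraries for a single library far from the rest. Of 129 such checks 7 stood apart (5.43%), where chance flags about 1 in 20. Oas1g had 27.8 CPM in M1 of the mice without T cells, where the other libraries had 16.2 to 19.2. Irf7 had 239 CPM in F4 and Rsad2 164 CPM in F3 of the same group, with 173 to 189.7 and 81.9 to 111 CPM in the others. Ifit3 had 60.3 CPM in M1 of the total T-cell group against 31.3 to 38.3. In the IL6Ra ko/IL21R ko group Oasl2 had 94.5 CPM in M1 (others 147 to 167), Mx2 6.41 CPM in M2 (others 3.35 to 3.96) and Slfn5 211 CPM in M4 (others 91.4 to 130.4).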

How the results depend on the processing

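No paired analysis was possible because the columns carry none of the replicate numbers of the sample titles. The counts of members called moved by over 1.5 times in these settings, and the cause was not tested. Most of these counts stand without the share of all genes called in the same setting. They are therefore not read as particular to the members. Total T cells against no T cells gave 11, but 7 in females alone and 2 in set B, and 6 to 14 on leaving out single libraries, lowest without total T-cell library M1. IL6Ra ko/IL21R ko against total T cells gave 16, but 6 in females alone, 5 with the set as a term, 8 with only the 2 groups and 4 in set B, and 8 to 20 with libraries left out. IL22 ko against total T cells gave 0, but 3 by DESeq2 and 6 with no filter, and 0 to 6 with libraries left out (6 without total T-cell F3, 3 without F4). Against total T cells, Tbet ko gave 16, but 0 with the set as a term, 4 with only the 2 groups, 6 with its columns summed (an alternative chosen after seeing the data) and 6 to 17 with libraries left out (6 without its F1, 7 without its F2). IFNg ko gave 18, but 0 with the set term, 10 with only the 2 groups and 10 to 19 with libraries left out (10 without its F1). IL-17AF ko gave 13, but 0 with the set term, 3 with only the 2 groups and 4 to 14 with libraries left out (4 without either of its own). Against no T cells, IL6Ra ko/IL21R ko gave 0, but 1 with no filter, and 0 to 1 with libraries left out. Tbet ko gave 3, but 5 by DESeq2, 7 with no filter, 6 in females, 9 with only the 2 groups, 0 with the set term, 0 with the columns summed and 0 to 3 with libraries left out. IFNg ko gave 9, but 14 with no filter, 0 with the set term and 0 to 8 with libraries left out (0 without its F1, 5 without its F2). IL-17AF ko gave 3, but 5 by DESeq2, 5 with only the 2 groups, 0 with the set term and 0 to 3 with libraries left out. With no filter, IL22 ko against IL6Ra ko/IL21R ko gave 2 and IFNg ko against IL-17AF ko gave 1. The F-test over 7 groups gave 19, but 4 with the set term, and 16 to 21 with libraries left out.

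Single results were counted per member and setting, for called members and for Isg15 in every comparison. Direction and status, called or not, stayed the same in 1191 of these. The call was lost in 362 and gained in 3, and the direction turned in 14. The 1191 include settings in which Isg15 was called in neither fit, so not all of them are calls that held. For Isg15 with total T cells against none the value in set B was -0.12. For IL6Ra ko/IL21R ko against total T cells in set B, Oas3 was 0.40, Irf7 0.0358 and Ifih1 0.0413. With the set term Slfn5 was -0.0527 with IFNg ko and -0.12 with IL-17AF ko against total T cells. Isg15 against no T cells, called in none of these, was 0.0624 for IL6Ra ko/IL21R ko in females. For IL22 ko it was 0.0653 in females, 0.0767 with the set term, 0.0728 without control F4, 0.0408 without control M1 and 0.0281 without IL22 ko M1. With the set term it was 0.30 for Tbet ko and 0.57 for IL-17AF ko. Oas2 and Samhd1 kept their call between total and no T cells in each alternative run. Groups of 2 libraries limit what can be said of the Tbet, IFNg and IL-17AF groups.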
